A study of Rattus norvegicus with 58 samples.

Results

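In the livers of heterogeneous stock (HS) rats, 22 transcripts varied widely from rat to rat although 6 inbred strains that founded the stock showed nearly the same level. The 22 members were 22 probe sets of 22 genes, out of 31042 probe sets measured, which name 14217 genes. They were chosen on measured values: a single gene symbol, a mean over all arrays above 6 on the log2 scale, a standard deviation (SD) of 0.5 or more within the glucose groups of the HS rats, and a range of the 6 strain means under 0.6. A single symbol belonged to 20826 probe sets, 10387 of these had a mean above 6, and 532 of these reached the SD. The other 510 variable probe sets had a strain range of 0.6 or more and serve as the comparison set. The SD in HS rats and the strain range of the members are therefore descriptions, and no test is given on them.

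Liver RNA of 58 male rats, 17 weeks old and fasted overnight, was measured on Affymetrix rat arrays, 1 array per rat, after amplification in 2 cycles. On these arrays 23 were HS rats with normal glucose tolerance and 23 were HS rats with glucose intolerance, all outbred and given no other treatment in the labels. The other 12 were rats of inbred strains, with 2 arrays each for WKY, M520, F344, BUF, BN and ACI. The labels do not say whether rats of a group shared a litter or day, so the spread behind each p-value may be partly technical. A difference of 1 on the log2 scale is a 2-fold difference. All 5 measured hepatocyte markers were bright on every array, from 12.46 upward, where the highest value of any probe set was 14.97.

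An HS rat carries a mosaic of the genomes of inbred founders, so HS rats differ from each other in genotype as well as in physiology. The stock also descends from the strains MR and WN, which were not analysed here. Within an inbred strain the animals carry nearly the same genome, so the spread between the 2 rats of a strain does not involve differences in founder alleles. In bulk liver, fewer cells of a type and less RNA per cell cannot be told apart.

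The HS rats carry numbers from 1 to 46 in their titles, across both glucose groups, and several members followed these numbers. Of 14 rats with high Psap, 13 were among rats 1 to 15, and the other was rat 27. What the numbers stand for is not stated, so no batch is named, and its part in the results was not tested. In 3 number ranges (rats 1 to 15, 16 to 30 and 31 to 46, a split chosen after seeing the data), the glucose groups were balanced, with 8 and 7, 7 and 8, and 8 and 8 rats.

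With the number range as a term beside the glucose group, 11 of the 22 members kept an SD of 0.5 or more: Nt5dc1, Per2, Wasf2, Eif4g1, Chka, Nom1, Nck2, Hm13, Gfra1, Lrp3 and Hsd17b7. The SD went from 0.71 to 0.41 for Psap, from 0.61 to 0.43 for Chtf8, from 0.57 to 0.40 for Zkscan3 and from 0.64 to 0.49 for Mia3. Correlations that rest on these genes are also given inside the number ranges.

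The spread between rats of the same strain was smaller than the spread among HS rats for 21 of the 22 members. The rule bears on this comparison, since it set a floor on the HS spread and a cap on the range of strain means. The SD in HS rats ran from 0.50 for Hsd17b7 to 1.09 for Nt5dc1, with a median of 0.54. The SD around the strain means had a median of 0.23 and ran from 0.10 for Tpr to 0.57 for Hsd17b7. The ratio of the HS SD to the within-strain SD had a median of 2.31 in the members, and its size relative to other probe sets follows in part from the rule. The largest ratios were 10.5 for Nt5dc1, 5.20 for Tpr, 4.02 for Gfra1, 3.86 for Nck2, 3.26 for Hm13 and 2.97 for Wasf2. The smallest were 0.875 for Hsd17b7, 1.33 for Ap3d1, 1.65 for Chka, 1.95 for Lrp6, 1.99 for Psap and 1.99 for Chtf8. For Hsd17b7 the spread between rats of a strain was thus as wide as that between HS rats.

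**Figure D1:**
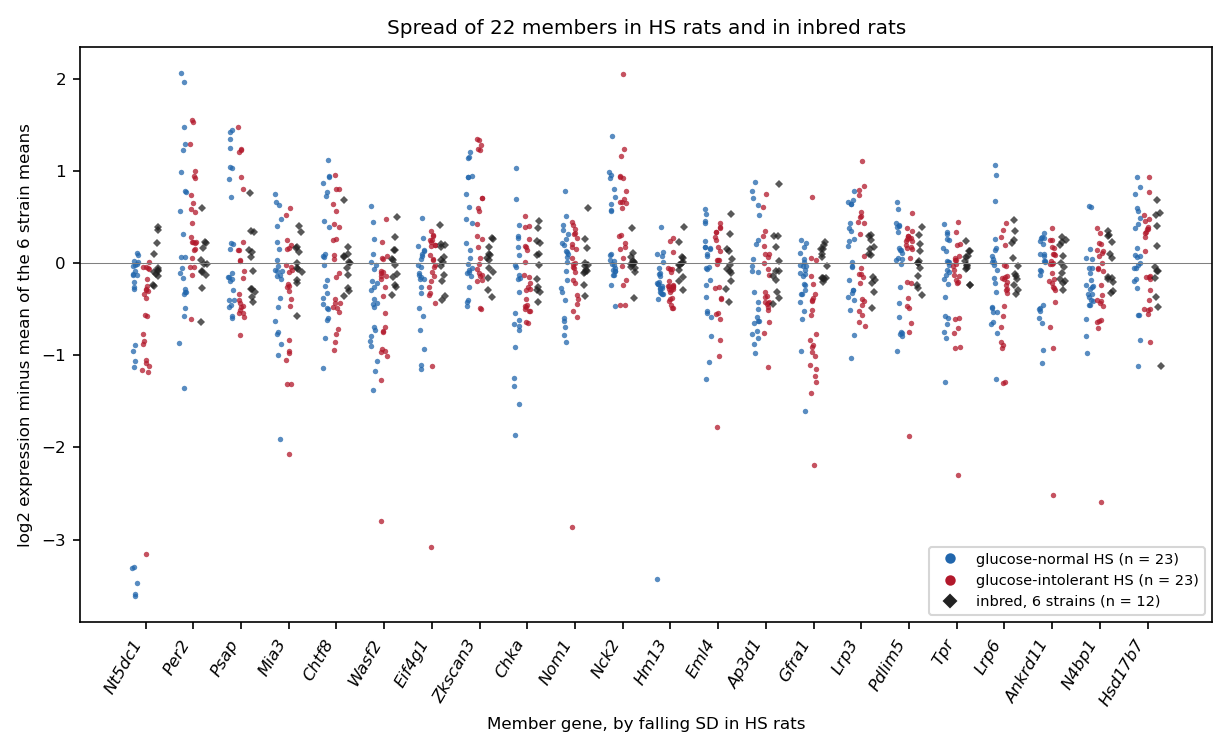
Each column is a member gene and each point a rat; the vertical axis is log2 expression minus the mean of the 6 strain means, for 23 glucose-normal HS, 23 glucose-intolerant HS and 12 inbred rats. Nt5dc1 has 6 HS rats far below all others, Hm13 has 1 such rat, and in several genes 1 glucose-intolerant rat lies apart at the bottom.

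Single arrays carried part of this spread. Intolerant rat 31 was the lowest of the 46 HS rats for 11 of the 22 members, and without that rat 12 of the 22 still met the rule. The 10 that no longer met it were Ankrd11, Eif4g1, Eml4, Hsd17b7, Lrp6, N4bp1, Nom1, Pdlim5, Tpr and Wasf2. When each member's own farthest rat was left out, 7 kept an SD of 0.5 or more, namely Nt5dc1, Per2, Psap, Mia3, Chtf8, Zkscan3 and Chka. Intolerant rat 31 was also among the 5 HS arrays of lowest mean correlation with the others, which ran from 0.984 to 0.991 over the HS arrays.

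Near the thresholds, Hsd17b7 (SD 0.5004) and N4bp1 (0.503) lay just inside the SD limit, and Tm7sf2 (0.499) and a further Ankrd11 probe set (0.494) just outside. For the strain range, Hsd17b7 (0.598) and Psap (0.587) lay inside and Ddit4 (0.601) and a further Hsd17b7 probe set (0.602) outside. For the mean, Ankrd11 (6.02) and Nck2 (6.08) lay inside, Cwf19l2 (5.87) and Rbfox2 (5.67) outside.

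Nt5dc1, which encodes a protein with a nucleotidase domain, had the widest spread and fell into separate levels. In glucose-normal HS rats its log2 values ran from 3.18 through a median of 6.59 to 6.90, and in glucose-intolerant rats from 3.64 through 6.41 to 6.81. The inbred rats lay between 6.54 and 7.18: 6.68 and 6.71 in ACI, 6.70 and 6.56 in BN, 6.90 and 7.16 in BUF, 7.01 and 7.18 in F344, 6.73 and 6.74 in M520, 6.54 and 6.65 in WKY. All 12 inbred rats were thus in the range of the highest HS rats or above it, and 28 of the 46 HS rats lay below the lowest inbred rat.

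Sorted by value, 6 HS rats had Nt5dc1 between 3.18 and 3.64, then came a gap of 1.98 in which no rat lay. A further 12 rats lay between 5.62 and 6.03, and 28 between 6.22 and 6.90. The lowest level held 5 glucose-normal and 1 glucose-intolerant rats, the middle level 4 and 8, and the highest level 14 of each. A mixture of 2 normal distributions of equal variance described the 46 values better than 1 distribution, with a gain of 48.8 in the Bayesian information criterion (BIC), and a mixture of 3 had a gain of 76.1.

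The other Nt5dc1 probe set on the array did not show these levels. It was brighter, with a mean of 8.08, an SD of 0.23 in HS rats and a strain range of 0.94, and its HS values ran from 7.43 to 8.48. The low level was thus seen by 1 probe set and not by the other.

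Of the 20 measured genes nearest to Nt5dc1 on its chromosome, 10 on each side, Smpdl3a, which encodes a sphingomyelinase-like phosphodiesterase, had the largest correlation in size. Over the HS rats its r with Nt5dc1 was -0.59 and rho -0.57. In the deviations of the inbred rats from their strain means r was -0.75. Since Nt5dc1 falls into levels, the correlation is also given within them. There r was -0.26 in the 28 rats of the highest level, -0.05 in the 12 of the middle level and 0.19 in the 6 of the lowest. Smpdl3a itself ran from 11.03 through 11.53 to 12.04 in HS rats and from 10.53 to 11.63 in inbred rats. Inside the levels Nt5dc1 varied little, with an SD of 0.18 in the highest, 0.14 in the middle and 0.18 in the lowest. The r values within levels therefore cannot show whether Smpdl3a differed between the levels, which was not tested. The r over the HS rats takes in differences between the levels. A neighbour of this kind was not particular to Nt5dc1. Larger in size were Dnajb14 with Pdlim5 (r 0.89), Zbtb41 with Tpr (0.74), Plekhf1 with Lrp3 (0.73) and Iars2 with Mia3 (-0.67). Other members, among them Per2, Psap and Chka, had no neighbour past 0.5 in size.

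**Figure D2:**
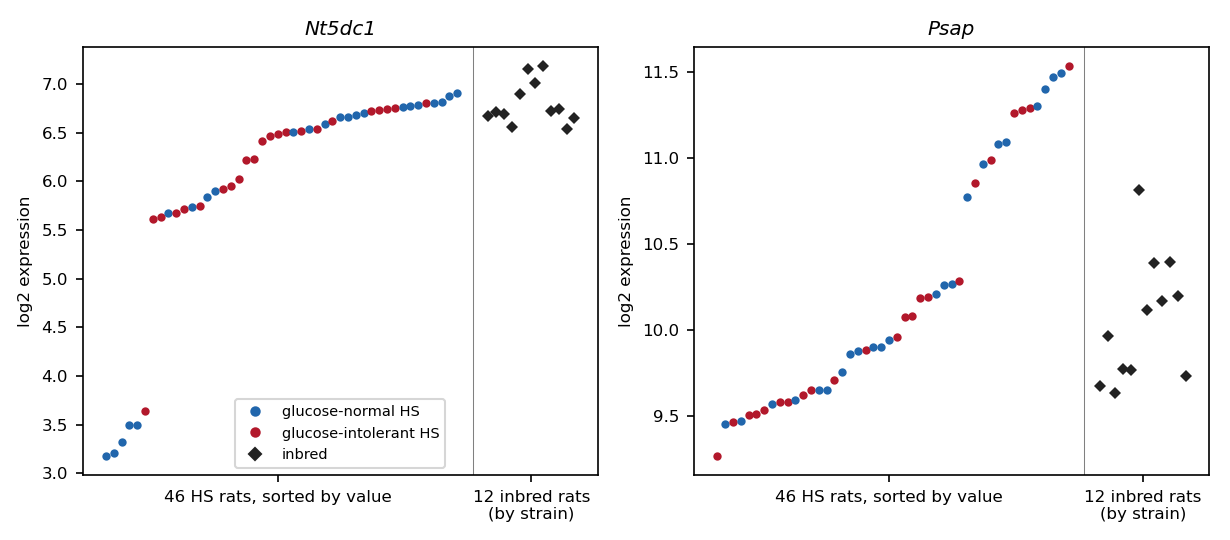
Log2 expression of Nt5dc1 and Psap in 46 HS rats sorted by value, coloured by glucose group, and in 12 inbred rats in the order of their strains' names. Nt5dc1 has 6 HS rats below 3.64 and none up to 5.62; Psap has 32 HS rats up to 10.3 and 14 from 10.8, and 1 BUF rat at 10.8.

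Psap, which encodes prosaposin, the precursor of the saposins that help break down sphingolipids in lysosomes, was the other member whose values separated. In glucose-normal rats it ran from 9.45 through a median of 9.94 to 11.5, and in glucose-intolerant rats from 9.27 through 9.96 to 11.5. A lower level held 32 HS rats (15 glucose-normal, 17 glucose-intolerant) between 9.27 and 10.3, and a higher one 14 rats between 10.8 and 11.5, with a BIC gain of 24.2 for 2 distributions. The inbred pairs were 9.68 and 9.97 in ACI, 9.63 and 9.77 in BN, 9.77 and 10.8 in BUF, 10.1 and 10.4 in F344, 10.2 and 10.4 in M520, and 10.2 and 9.73 in WKY. The 2 BUF rats, of the same strain, fell into different levels.

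The Psap levels followed the rat numbers: 13 of rats 1 to 15, 1 of rats 16 to 30 and 0 of rats 31 to 46 were in the higher one. The medians of these number ranges were 11.3, 9.71 and 9.82. For Nt5dc1 the lowest level held 1, 3 and 2 rats of the number ranges and the middle level 4, 5 and 3, so that each level was found in each number range. With the number range as a term, Nt5dc1 still met the conditions for bimodality given next, and Psap did not.

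Bimodality was called where the BIC gain was 10 or more, the separation of the components (Ashman's D) 3 or more, and the smaller component held 3 rats or more. Among the members 2 of 22 met this (9.09%), against 55 of 510 in the comparison set (10.8%), so the share of bimodal members was near that of the background. Another 3 members met the first 2 conditions only through a component of 1 rat, intolerant rat 31: Eif4g1, Nom1 and Ankrd11. Without that rat 3 members met all conditions, Pdlim5 being the added one, and with unequal variances Psap alone did. Hm13, the signal peptide peptidase of the endoplasmic reticulum, had 1 rat, normal rat 32, at 6.75, a gap of 2.94, and 45 rats between 9.69 and 10.6. The 12 inbred rats had Hm13 between 9.89 and 10.6, and without that 1 rat the SD among HS rats was 0.20.

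Of the 22 members, 11 varied together. With average linkage on the correlation of deviations from the glucose group means, cut at a mean r of 0.5, 11 genes formed 1 group: Mia3, Wasf2, Eif4g1, Nom1, Eml4, Ap3d1, Pdlim5, Tpr, Lrp6, Ankrd11 and N4bp1. Psap, Chtf8 and Zkscan3 formed a group of 3, and the other 8 members stood alone. Each point of these correlations is 1 array, so both genes share its RNA, labelling and normalisation, and the r values are descriptions.

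The group of 11 holds genes of varied roles. Mia3 loads large cargo such as collagen at exit sites of the endoplasmic reticulum, Wasf2 drives actin branching, and Ap3d1 is a subunit of the AP-3 vesicle adaptor. Eif4g1 is a scaffold of translation initiation, Nom1 a nucleolar protein, and Tpr a protein of the nuclear pore basket. Eml4 binds microtubules, Pdlim5 is a PDZ and LIM domain protein, Lrp6 is a Wnt co-receptor, and Ankrd11 a chromatin regulator.

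The average of the 11 was lowest in rats 1 to 15, with a median of 6.65, against 7.32 in rats 16 to 30 and 7.14 in rats 31 to 46. Their mean pairwise r was 0.77 over the 46 HS rats, from 0.37 to 0.93, and 0.76 in glucose-normal and 0.79 in glucose-intolerant rats. Without intolerant rat 31, lowest for 10 of the 11, it was 0.71. With the number range as a term it was 0.73, and inside the number ranges it was 0.63, 0.38 and 0.82, the last of them with rat 31. The lowest r of a pair inside these ranges was -0.11, -0.39 and 0.43. In the deviations of the 12 inbred rats from their strain means the mean r was 0.40, from -0.53 to 0.94. The pattern was thus present in each glucose group, the intolerant one with rat 31 included. Inside rats 1 to 15, inside rats 16 to 30 and among rats of the same strain, some pairs had a negative r.

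**Figure D3:**
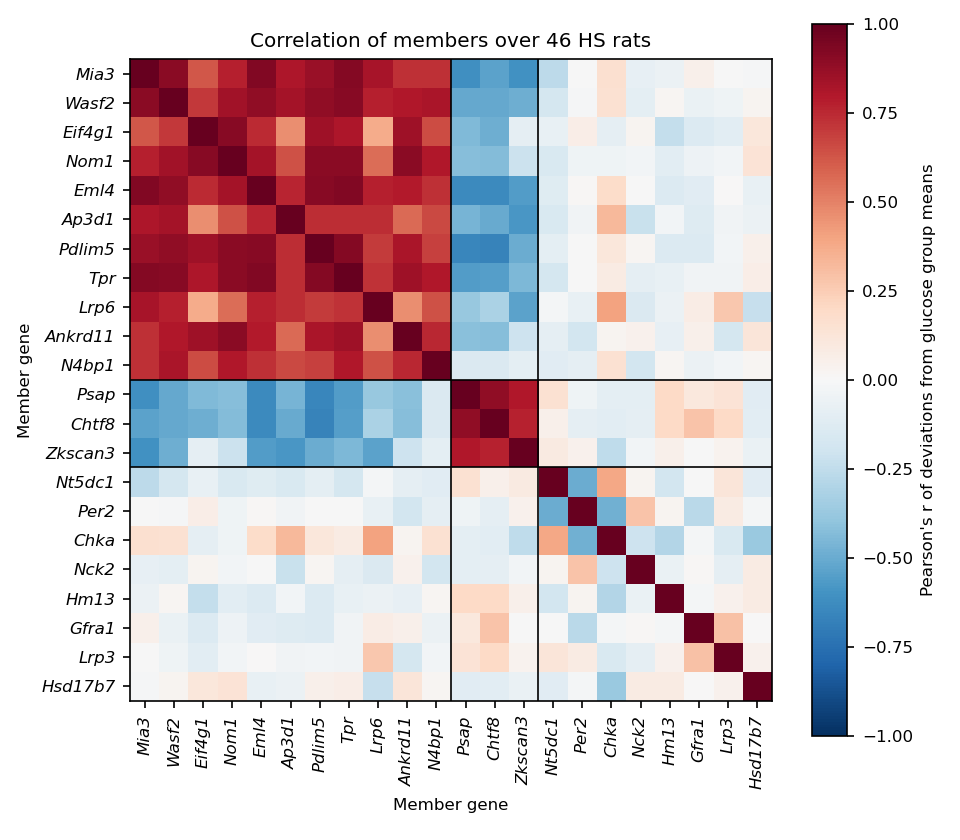
Pearson's r between the 22 members over 46 HS rats, in deviations from the glucose group means, ordered by group; lines set off the 11 genes (Mia3 to N4bp1) and the 3 genes (Psap to Zkscan3). The 11 correlate with a mean r of 0.77, and all 33 pairs with the 3 are negative; r of Nt5dc1 and Psap is taken across their separate levels.

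For Mia3 the glucose-normal rats ran from 7.55 through a median of 9.37 to 10.2 and the glucose-intolerant rats from 7.39 through 9.21 to 10.1, while the 12 inbred rats lay between 8.89 and 9.86. Tpr ran from 6.23 through 7.44 to 7.94 in glucose-normal and from 5.22 through 7.39 to 7.96 in glucose-intolerant rats, and from 7.28 to 7.75 in inbred rats. Both genes thus spread more often downward from the inbred range, Mia3 with 13 HS rats below and 7 above it, Tpr with 14 below and 7 above. Wasf2 had 23 HS rats below its inbred range of 6.42 to 7.27 and 1 above.

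In intolerant rat 31 the log2 values were 3.51 for Nom1, 3.64 for Ankrd11, 3.98 for Wasf2, 4.24 for N4bp1, 4.46 for Pdlim5, 5.22 for Tpr and 5.42 for Eif4g1. The next lowest HS rat was at 5.52, 5.07, 5.40, 5.86, 5.38, 6.23 and 7.34 for these genes, in the same order. This rat was not low throughout: it ranked 44 of 46 from the lowest for Chka and 40 for Nck2.

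Psap, Chtf8 and Zkscan3 varied together over the 46 HS rats and opposite to the group of 11. Chtf8 is a subunit of an alternative clamp loader of DNA replication, and Zkscan3 a zinc finger repressor of autophagy and lysosome genes. Between Chtf8 and Zkscan3 r was 0.77 and rho 0.72, with r of 0.82 in glucose-normal, 0.72 in glucose-intolerant rats and 0.41 in the inbred deviations. Rats 1 to 15 had the highest levels of all 3 genes, with medians of 8.22 for Chtf8 and 7.30 for Zkscan3, against 7.06 and 6.11 in rats 16 to 30 and 7.06 and 6.12 in rats 31 to 46. With the number range as a term the r of Chtf8 and Zkscan3 was 0.51. Inside the number ranges it was 0.62, 0.62 and 0.26, the last of them with intolerant rat 31, the lowest for Zkscan3. Within the Psap levels, r with Chtf8 was 0.64 in the 32 lower rats and 0.16 in the 14 higher rats, and r with Zkscan3 was 0.09 and 0.31. Chtf8 ran from 6.30 through 7.42 to 8.56 in glucose-normal and from 6.50 through 7.34 to 8.40 in glucose-intolerant rats.

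All 22 pairs of Chtf8 or Zkscan3 with one of the 11 had a negative r in HS rats, with a median of -0.49 and a range from -0.67 to -0.09. The median was -0.65 in glucose-normal and -0.37 in glucose-intolerant rats, and -0.63 without intolerant rat 31. With the number range as a term it was -0.24, and 18 of the 22 pairs were negative. Inside the number ranges the median was -0.60 in rats 1 to 15, -0.08 in rats 16 to 30 and -0.01 in rats 31 to 46, with 21, 12 and 11 of the 22 pairs negative. Within rats 16 to 30 the opposite course of the groups thus did not hold. The value for rats 31 to 46 includes intolerant rat 31, the lowest HS rat for Zkscan3 and for 10 of the 11. That value was not recomputed without this rat, so it does not show the course in the other rats of that range. For Psap the values are within its levels: with Mia3 it had r of -0.03 in the 32 lower and 0.11 in the 14 higher rats, and with Tpr -0.12 and 0.19. In the inbred deviations the relation had the other sign, with a median r of 0.41 and 19 of the 22 pairs positive. These gene pairs share the same 6 pairs of rats and are not separate observations. In the BUF pair, replicate 2 was above replicate 1 for all 3 genes (by 1.05 for Psap) and for 9 of the 11 (by 1.17 for Ap3d1).

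Over the table, 82 of 8245 other genes with a mean above 6 had an r above 0.7 with the average of the 11 (0.995%), and 0 had one under -0.7. The genes of highest r, named after their values were seen, were Nipbl with Tpr (0.97), a loader of cohesin, Pcf11 with Eml4 (0.95), a factor of transcript cleavage, and Tbc1d12 with Wasf2 (0.94). Among those nearest to Psap were Ergic1 (r 0.59 in the 32 lower and 0.80 in the 14 higher rats), Dnajc7 (0.83 and 0.34) and Retreg3 (0.82 and 0.72), a receptor for autophagy of the endoplasmic reticulum. The average of the 11 had an absolute r of 0.78 with the third principal component of the probe sets with a mean above 6, which held 6.72% of their variance. With the largest component, which held 21.9%, the absolute r was 0.16.

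Marker lists of other cell types moved little with the group of 11. The r of its average with the mean of a list ran from -0.39 for T and NK cells to 0.28 for hepatocytes over 11 lists, and 1 marker, of hepatocytes, had an r above 0.5. Among the 21 pathway lists the largest in size was -0.42 for cell cycle genes. The gene spans of the 11 in the GRCr8 annotation had a median of 63186 bases (20066 to 168105), against 35324 for the other 11 members and 23347 for 8227 genes on the array with a mean above 6. The part that array quality, cell makeup, rat number or gene span had in the pattern was not tested.

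Other probe sets of the same gene gave a mixed picture for the group of 11. For 7 of these genes the array holds 10 probe sets brighter than the member, and 2 of these 10 had an r above 0.5 with it, both of Ankrd11 (0.90 and 0.89). Their SD in HS rats had a median of 0.19. Mia3 had a second probe set of mean 10.8 with an SD of 0.13 and an r of 0.17 (0.32 without intolerant rat 31). For Ap3d1 the brighter probe set, with mean 10.5, had an SD of 0.11 and an r of 0.30 (0.48 without that rat). For Tpr the brighter probe set had an r of -0.10, while a dimmer one of mean 5.31 had 0.91. Eif4g1 had a brighter probe set at -0.30 and a dimmer one, of mean 5.57, at 0.74 (0.62 without that rat).

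Nom1 had 2 brighter probe sets at -0.26 and -0.03, and Eml4 had 2 at 0.19 and 0.15 (0.41 and 0.03 without intolerant rat 31). For N4bp1 a probe set of like brightness had an r of 0.17, and 0.57 without that rat. Wasf2 and Lrp6 have no other probe set with their symbol, and the 3 others of Pdlim5 were dim, with means from 3.24 to 4.10. Thus another probe set followed the member for Ankrd11, Tpr and Eif4g1, and for N4bp1 without 1 rat, and none reached an r of 0.5 for Mia3, Nom1, Eml4 and Ap3d1.

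**Figure D4:**
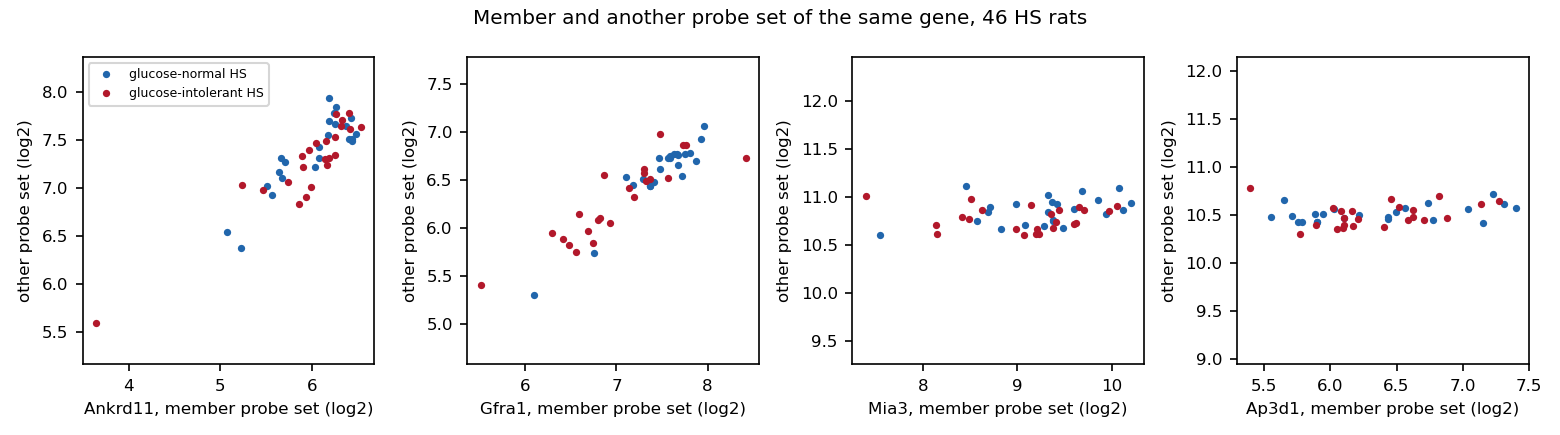
Log2 value of the member probe set (horizontal) and of another probe set of the same gene (vertical, a span of equal size in each panel) in 46 HS rats. The 2 probe sets follow each other for Ankrd11 (r 0.90) and Gfra1 (r 0.90). They do so less for Mia3 (r 0.17, and 0.32 without intolerant rat 31) and Ap3d1 (r 0.30, and 0.48 without that rat).

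Outside that group, 5 members had another probe set with an r above 0.5. The r was 0.90 for Gfra1, 0.89 for Hsd17b7, 0.65 for a dim probe set of Hm13 (mean 5.17), and 0.57 for both Per2 and Lrp3, with SDs of 0.39, 0.50, 0.35, 0.15 and 0.22. For Zkscan3 the brighter probe set had an SD of 0.12 and an r of -0.28, and for Nt5dc1 r was 0.30. Dim probe sets of Chtf8 had an r of -0.13 and 0.29, and a dim one of Nck2 had 0.24. Psap and Chka have no other probe set with their symbol.

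Per2 and Chka varied with genes of the circadian clock. In the clock, Clock or Npas2 with Bmal1 activate genes that hold E-boxes, among them the Per and Cry genes, whose proteins repress this activation, and Dbp, Tef and Hlf act through D-boxes on a further set of genes. Liver levels of these transcripts swing over the day and shift with feeding. The sources used here do not give the hour of death of each rat, and its part in the spread was not tested. The promoters of both genes, 300 bases each in GRCr8 from RefSeq, are shown because both genes moved with the clock. Capitals mark the E-box CACGTG, its variant CACGTT and the D-box TTANGTAA, searched on both strands.
Per2, chr9:99496944-99497243, minus strand: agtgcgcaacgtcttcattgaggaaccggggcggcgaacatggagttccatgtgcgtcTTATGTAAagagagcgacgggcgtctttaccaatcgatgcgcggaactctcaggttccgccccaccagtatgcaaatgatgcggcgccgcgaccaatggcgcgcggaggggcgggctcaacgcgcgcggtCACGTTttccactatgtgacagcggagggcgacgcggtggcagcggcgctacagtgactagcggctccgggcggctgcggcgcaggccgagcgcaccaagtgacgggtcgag
Chka, chr1:210505865-210506164, plus strand: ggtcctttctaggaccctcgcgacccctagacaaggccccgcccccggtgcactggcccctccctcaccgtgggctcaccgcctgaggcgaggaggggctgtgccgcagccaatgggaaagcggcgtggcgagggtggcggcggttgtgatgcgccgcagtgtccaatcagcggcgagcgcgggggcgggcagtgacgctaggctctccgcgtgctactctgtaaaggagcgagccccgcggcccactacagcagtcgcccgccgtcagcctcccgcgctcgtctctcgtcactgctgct

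The Per2 promoter held 1 CACGTT, 62 bases before the start, and 1 D-box, 192 bases before it. The Chka promoter held none of the 3 motifs in this window. Of 33469 promoters of this length, 6.42% held CACGTG, 4.83% CACGTT and 2.24% the D-box. Promoters were found for 20 of the 22 members, of which 3 held CACGTG (Chtf8, Eif4g1 and Lrp3), 3 CACGTT (Per2, Hm13 and Ap3d1) and 1 the D-box. A match is a string of letters and says nothing about binding.

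Per2, a repressor of the clock, ran from 5.53 through a median of 6.95 to 8.94 in glucose-normal rats and from 6.27 through 7.17 to 8.43 in glucose-intolerant rats. The inbred pairs were 6.75 and 7.05 in ACI, 6.78 and 7.10 in BN, 6.87 and 7.48 in BUF, 6.87 and 6.61 in F344, 7.11 and 6.24 in M520, and 6.80 and 6.92 in WKY. The 2 HS groups overlapped throughout, 16 HS rats lay above the highest inbred rat, and 2 lay below the lowest.

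Of 19 other measured genes of a clock list, 6 had an r above 0.5 with Per2 over the HS rats and 3 under -0.5. Tef (r 0.73, rho 0.68) and Dbp (0.73, 0.62) ran with Per2, and so did Bhlhe40, Per3, Bhlhe41 and Hlf. Of these, Per3 (mean 5.48) and Bhlhe41 (mean 3.61) were dimmer than the limit of 6 set for members. Npas2 (-0.73, -0.60), Bmal1 (-0.70, -0.63) and Clock (-0.60, -0.45) ran opposite. With the 2 rats farthest from the median of the second gene left out, r was 0.64 for Tef, 0.66 for Dbp, -0.61 for Npas2 and -0.58 for Bmal1. For each of the clock genes named here, r was smaller in size in glucose-intolerant than in glucose-normal rats, a difference that was not tested. The glucose-normal r takes in normal rats 15, 21, 29 and 45, with Per2 of 8.94, 8.84, 8.11 and 8.35. It was not recomputed without these rats. In glucose-normal and glucose-intolerant rats r was -0.83 and -0.40 for Bmal1, and 0.79 and 0.28 for Hlf. In the inbred deviations r was -0.37 for Bmal1 and 0.25 for Dbp. Inside the number ranges r was 0.90, 0.71 and 0.61 for Dbp and -0.87, -0.67 and -0.42 for Bmal1, so both kept their sign.

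Of the 19 clock genes, 13 had an SD of 0.5 or more in HS rats and strain ranges from 0.65 to 3.45; a strain range wider than that of Per2 (0.50) follows largely from the rule. At an adjusted p under 0.05 in limma, 0 of the 19 were called between the glucose groups, as were 0 of all 31042 probe sets. Between HS and inbred rats 2 were called higher and 1 lower in HS rats, where 1569 of all 31042 probe sets (5.05%) were called.

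Chka, choline kinase alpha, the enzyme that opens phosphatidylcholine synthesis from choline, ran from 7.41 through 9.10 to 10.3 in glucose-normal and from 8.63 through 9.02 to 9.78 in glucose-intolerant rats. The inbred pairs were 9.36 and 9.11 in ACI, 8.99 and 9.02 in BN, 9.38 and 9.52 in BUF, 9.74 and 8.85 in F344, 9.66 and 8.96 in M520, and 9.50 and 9.25 in WKY. The lowest 4 rats, at 8.04 or below, were all glucose-normal. They were normal rats 15, 21, 29 and 45, whose Per2 lay between 8.11 and 8.94. Chka correlated with Npas2 (r 0.80, rho 0.75), Clock (0.74, 0.67) and Bmal1 (0.69, 0.59), and opposite to Dbp (-0.74, -0.70), Per3 (-0.71, -0.68) and Nr1d2 (-0.67, -0.69). Chka thus had a positive r with Npas2, Clock and Bmal1, where Per2 had a negative one.

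Between Per2 and Chka r was -0.48 and rho -0.38 in HS rats, -0.62 in glucose-normal, -0.04 in glucose-intolerant rats and 0.59 in the inbred deviations. The rat with the highest Per2 (8.94) was the rat with the lowest Chka (7.41), normal rat 15. For Chka and Npas2, r was 0.81, 0.79 and 0.84 inside the number ranges.

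**Figure D5:**
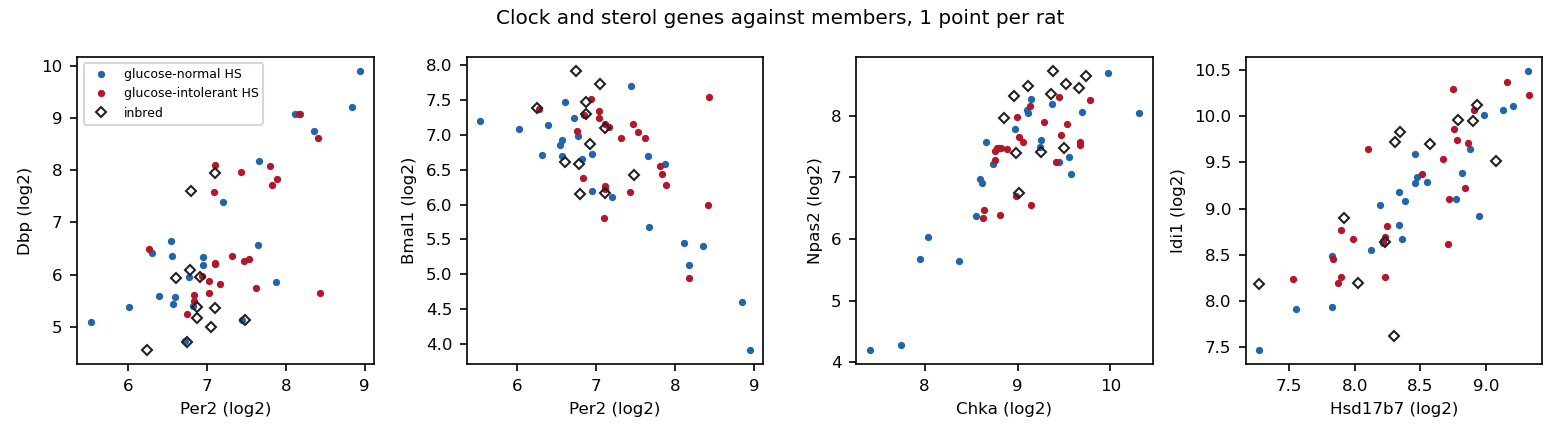
Log2 expression of Dbp and Bmal1 against Per2, of Npas2 against Chka, and of Idi1 against Hsd17b7, 1 point per rat for 23 glucose-normal HS, 23 glucose-intolerant HS and 12 inbred rats. Over the HS rats r is 0.73, -0.70, 0.80 and 0.88, in panel order.

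Hsd17b7 varied with the genes of cholesterol synthesis. It encodes a reductase of the late pathway that also converts estrone to estradiol; the pathway is induced by SREBP2 when sterols are low. Its promoter, 300 bases in GRCr8 from RefSeq, is shown with capitals on CCAAT, read on either strand, since CCAAT-binding NF-Y is known to act with SREBPs. It held 3 of them, 25, 86 and 176 bases before the start, and no TCACNCCAC, a sterol element form found in 1.12% of promoters. CCAAT was in 37.5% of all promoters and in 10 of the 20 member promoters.
Hsd17b7, chr13:84722705-84723004, minus strand: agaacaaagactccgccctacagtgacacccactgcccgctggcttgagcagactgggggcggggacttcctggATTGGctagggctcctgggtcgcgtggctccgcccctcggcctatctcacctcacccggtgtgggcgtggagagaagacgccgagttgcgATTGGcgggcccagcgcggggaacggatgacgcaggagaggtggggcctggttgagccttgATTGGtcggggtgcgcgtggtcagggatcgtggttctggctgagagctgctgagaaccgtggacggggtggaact

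Hsd17b7 ran from 7.27 through 8.46 to 9.32 in glucose-normal and from 7.53 through 8.51 to 9.32 in glucose-intolerant rats. The inbred pairs were 8.93 and 8.31 in ACI, 8.23 and 8.02 in BN, 8.90 and 7.27 in BUF, 7.92 and 8.34 in F344, 8.58 and 8.79 in M520, and 8.30 and 9.08 in WKY. The 2 BUF rats, 1.63 apart, spanned most of the HS range.

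Of 18 other measured genes of a cholesterol list, 14 had an r above 0.5 with Hsd17b7 over the HS rats and none was under -0.5, with a median r of 0.65 and rho of 0.62. The highest were Idi1 (0.88), Msmo1 (0.86) and Sqle (0.85), enzymes of the pathway. In the inbred deviations r was 0.92 for Idi1 and 0.97 for Sqle, over 6 pairs of rats of which the BUF pair differed most in Hsd17b7. Inside the number ranges r with Idi1 was 0.93, 0.92 and 0.81. At an adjusted p under 0.05 in limma, 0 of the 18 were called between the glucose groups (0% of all probe sets) and 0 between HS and inbred rats (5.05% of all probe sets); the list is too short to tell 0 calls from that share.

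Lrp3, a member of the LDL receptor family, ran from 6.0 through 7.04 to 7.81 in glucose-normal and from 6.35 through 6.98 to 8.14 in glucose-intolerant rats, and from 6.54 to 7.33 in inbred rats. Its nearest genes in expression, named after their values were seen, were Spring1, which is needed for SREBP activation (r 0.87, rho 0.84), the amino acid transporter Slc38a2 (0.86, 0.86), Tsku (0.86, 0.88) and Foxo3 (0.83, 0.86), all positive in the inbred deviations, from 0.32 for Spring1 to 0.90 for Foxo3. Lpar6 (-0.80) and Pcdh18 (-0.78) ran opposite. Of the clock list Lrp3 followed Usp2 (0.82), Per1 (0.77) and Noct (0.67), none of which reached 0.5 with Per2. Of 19 genes of the cholesterol list only Insig1 had an r above 0.5 in HS rats (0.61). In the inbred deviations all 19 ran opposite to Lrp3, from -0.36 to -0.92, with -0.62 for Insig1. These values share the same 6 pairs of rats, so the 19 genes are not separate observations. With Spring1 r was 0.92, 0.92 and 0.84 inside the number ranges.

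Gfra1, a receptor subunit for glial-cell-derived neurotrophic factors, ran from 6.10 through 7.58 to 7.96 in glucose-normal rats and from 5.51 through 6.93 to 8.42 in glucose-intolerant rats. The inbred pairs were 7.89 and 7.85 in ACI, 7.86 and 7.67 in BN, 7.80 and 7.77 in BUF, 7.50 and 7.55 in F344, 7.54 and 7.55 in M520, and 7.53 and 7.93 in WKY. HS rats spread downward from a narrow inbred range: 29 lay below it and 2 above. Gfra1 ran opposite to Smyd2, a lysine methyltransferase (r -0.68, rho -0.64), and Hsd17b6, a steroid dehydrogenase (-0.67, -0.73), and with Tbc1d9 (0.68, 0.60). Of the 18 nearest measured genes on its chromosome, Acsl5, which activates long fatty acids, had an r of -0.64, and no other passed 0.5 in size. Inside the number ranges r was -0.44, -0.89 and -0.66 with Smyd2 and -0.37, -0.75 and -0.77 with Acsl5.

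Nck2, an adaptor between receptor tyrosine kinases and actin, ran from 5.32 through 5.82 to 7.15 in glucose-normal and from 5.32 through 6.38 to 7.83 in glucose-intolerant rats, and from 5.40 to 6.16 in inbred rats. It spread upward, with 21 HS rats above the inbred range and 3 below. Its largest correlation with another gene was -0.59, with Mthfsd, over the genes with a mean above 6. The 22 members lay on 13 chromosomes, and the nearest pair was 33 genes apart.

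The glucose comparison asked which members differed in level between the 2 groups of HS rats. The wide spread by which the members were chosen enters its standard errors. With limma and Benjamini-Hochberg adjustment over 31042 probe sets, 0 of the 22 members were called, as were 0 of all probe sets (0%). At an unadjusted p under 0.05 there was 1 member (4.55%), against 8.0% of all probe sets. That member was Gfra1, lower in intolerant rats by 0.46 ± 0.15 (SE), with overlapping groups, p = 0.0029 and adjusted p = 0.399 in limma. The median difference of the members was -0.03, and -0.0091 over all probe sets. The other differences ran from -0.22 for Lrp6 to 0.34 for Nt5dc1, and the smallest of their unadjusted limma p-values was 0.14.

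The comparison of HS with inbred rats took the mean of the 2 HS groups minus the mean of the 6 strains. Here limma called 1569 of 31042 probe sets (5.05%) and 0 of the 22 members, against 50 of the 510 in the comparison set. All groups share 1 estimate of the spread in this fit. The wide HS spread by which the members were chosen thus enters these standard errors too, and the count of members called depends on the rule. At an unadjusted p under 0.05 there were 4 members (18.2%), against 19.6% of all probe sets. Nt5dc1 was lower in HS rats by 0.80 ± 0.32 (SE; adjusted p = 0.132), Gfra1 by 0.46 ± 0.15 (adjusted p = 0.0647) and Wasf2 by 0.44 ± 0.18 (adjusted p = 0.145), and Nck2 was higher by 0.38 ± 0.16 (adjusted p = 0.161), none past the threshold in limma. The median difference was -0.18 in the members, 0.18 in the comparison set and -0.0097 over all probe sets. With a filter on a mean above 6, Gfra1 was called lower in HS rats, and with array weights or without the 5 HS arrays of lowest correlation, both Gfra1 and Wasf2 were. The stock and any difference in how its rats were bred, kept or processed cannot be told apart here.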

How the data were processed

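The table the authors deposited holds log2 expression values, with array medians from 5.33 to 5.39. The submitters' processing notes name Partek; the sources used here do not give background correction, summarisation or genome build. No read depth exists for arrays, and their number limits the precision. Groups were taken from the sample titles, since 1 description of the intolerant rats mixes both terms. The platform annotation gave 20826 probe sets 1 symbol. The members, gene lists and rules were chosen with earlier results of these data known.

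Tests used limma 3.58.1 (lmFit, eBayes) in R 4.3.3 on all 31042 probe sets, with Benjamini-Hochberg adjustment at 0.05, two-sided. Mixtures were fitted with mclust 6.1.1, and groups by average linkage on 1 minus Pearson's r. For genes outside the members the brightest probe set was used. The methods were tested on simulated data. Named genes were the 15 members of largest SD, bimodal and grouped members, those of smallest p, of extreme spread ratio, near a threshold or in a list; correlates were picked after seeing values. The replicate numbers of the inbred rats were not treated as pairs in the main fit. Over 15 pairs of strains the correlation of deviations had a median of -0.0835 and ran from -0.214 to 0.602, with 5 above 0.1. Strains with a high value shared part of their replicate difference, and the reason was not tested. Alternatives covered normalisation, thresholds, filters, array weights, left-out arrays and ranges of the rat numbers.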

Additional observations from a re-analysis of the deposited data

How the results depend on the processing

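The number of members depended on the thresholds and on single arrays. It was 14 with the median absolute deviation, 6 with an SD of 0.6, 6 with a strain range of 0.4, 3 with the range taken over single inbred arrays, 13 with a mean of 7, 11 without the 5 HS arrays of lowest correlation and, in a setting chosen after seeing the data, 13 without intolerant rat 31, against 22. Leaving out single inbred arrays gave 14 (without BUF replicate 1) to 29 (without BUF replicate 2). Quantile normalisation gave 20 and centring on medians 22. With the number range as a term, also chosen after seeing the data, 12 probe sets met the rule, 11 of them members, and 1 member was bimodal, Nt5dc1. With unequal variances 1 member was bimodal, Psap, and with complete linkage 7 genes formed a group of 5 or more; every other setting run left 11. For HS against inbred rats, members called were 1 with a mean above 6, 2 with array weights and 2 without the 5 HS arrays, and 0 without each inbred array in turn. Over all probe sets that comparison called 3494 with array weights, 4077 without the 5 HS arrays, 73 with strain means as units, and 689 (without BUF replicate 2) to 2185 (without BUF replicate 1) without single inbred arrays. With the replicate block it called 1566 and 0 members, while the numbers were linked in some pairs of strains only. The glucose comparison called 1 probe set with quantile normalisation, 12 with array weights and 9 without the 5 HS arrays, none of them a member. The median ratio of HS to within-strain SD stayed within 1.5 times 2.31 in every setting run. Of 102 recomputed values of 17 correlations 0 changed sign. Beyond the confidence interval of the main value lay 2, both with the number range as a term. They were the mean r of Psap, Chtf8 and Zkscan3 (0.59) and the r of Psap and Chtf8 (0.74). The interval is that of a single correlation, so for a mean r it is only a yardstick. The 17 leave out the pair of Chtf8 and Zkscan3 and their 22 pairs with the group of 11. With the number range as a term that pair had an r of 0.51. The 22 pairs then had a median of -0.24, and 18 of them were negative, against all 22 without the term.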
